A study of Brassica napus with 15 samples.

Results

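ABI3 in oilseed rape (Brassica napus) was followed through its copies on the A and C subgenomes, the loci BnaA03g37510D (the A03 copy) and BnaC03g44820D (the C03 copy). They were chosen by locus name, as 2 of the 101040 coding genes in the expression table, and their RNA levels were read in all 15 libraries. Further ABI3 loci were not searched for, and ABI3 RNA here means that of these copies. The study compared 3 winter oilseed rape (WOSR) accessions that differ in germination, named C129, C033 and C032, each sampled dry (0 hai) and at 2, 12, 36 and 72 hai (hours after imbibition). Whole seeds took up distilled water in germination vessels held at 20 °C in the dark. Each library pooled RNA of 3 biological replicates of 30 seeds, and there was 1 library for each accession and time point. No error within a condition can therefore be given, and the 3 accessions served as replicates of a time point. Because whole seeds were sampled, fewer cells of a type and less RNA per cell cannot be told apart.

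Oilseed rape is an allotetraploid that joined the A genome of Brassica rapa with the C genome of Brassica oleracea, so that most genes are present as pairs of homeologues. In Arabidopsis, ABI3 (ABSCISIC ACID INSENSITIVE 3) is a transcription factor of the B3 domain family that acts downstream of the hormone abscisic acid (ABA). There it works with LEC1, LEC2 and FUS3 in seed maturation, switching on genes for storage proteins, oil body proteins and desiccation tolerance, and seeds of Arabidopsis abi3 mutants germinate in the presence of ABA.

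The A03 copy (GSBRNA2T00154921001) lies on the plus strand of scaffold LK031874, from 802340 to 805726, in the Brassica napus assembly of Chalhoub et al. Its model has 6 exons that sum to 2445 bases. The C03 copy (GSBRNA2T00085286001) lies on the minus strand of scaffold LK032051, from 779194 to 782286, and its model has 7 exons that sum to 2312 bases. The study's oligonucleotides for ABI3 are given because they bear on which copy each assay read. Its primer list assigned a single quantitative PCR pair to both loci, whereas the pair used to clone the coding sequence was listed for the A03 copy alone. They are shown 5′ to 3′, the cloning pair without its 15 adapter bases and with the start codon and the complement of the stop codon in capitals.
BnaABI3-F: gactcaaatcggagaagtct
BnaABI3-R: cagggacattaggccaatac
attB1-BnaABI3: ATGaaaaccttgcatgtggcg
attB2-BnaABI3: TCAtttaactgcttgagaagt
The legend of the quantitative PCR results names the C03 copy alone, so that the copies this pair amplified are not settled by the sources used here. Reads that fit both homeologues could have been shared out between them during quantification, so that the level of each copy is less certain than their sum.

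Depth was computed as read equivalents, the coverage of a gene times its length divided by the read length of 100 bases. Libraries held 24.9 to 51.9 M read equivalents, 33.5 M at the median. Non-coding genes took 5.82% to 26.6% of them, most in C033 at 12 hai. The A03 copy rested on 180 to 10431 read equivalents per library and the C03 copy on 100.0 to 6681, the fewest at 72 hai. As a check of the material, the summed level of 7 seed reserve genes (napin, oleosin and caleosin matches) was 112 to 165 TPM in dry seeds and 0.102 to 1.35 TPM at 72 hai. The summed level of 3 photosystem gene matches was at most 2.81 TPM up to 36 hai and 27.7 to 47.7 TPM at 72 hai, although the seeds were labelled as germinated in the dark.

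ABI3 RNA was stored in the dry seed, peaked at 12 hai in every accession and was at its lowest level at 72 hai. In TPM, a level set per gene length and scaled to the same total in each library, the A03 copy in C129 measured 51.1, 61.9, 146, 9.69 and 2.73 at 0, 2, 12, 36 and 72 hai. In C033 it measured 46.5, 42.5, 84.1, 10.6 and 2.78 TPM at the same times. In C032 it measured 53.0, 60.9, 145, 25.4 and 2.75 TPM. The 12 hai libraries stood above all others in each accession. In TPM as deposited the 3 values at 72 hai, 2.73 to 2.78 TPM, had the narrowest spread of any time point. With the median-of-ratios scaling described below they ran from 2.03 to 2.68 TPM. At its peak the A03 copy ranked 537th, 731st and 506th among the coding genes of C129, C033 and C032, and at 72 hai it ranked 38978th, 34538th and 37643rd.

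The C03 copy followed the same course at a lower level. In C129 it measured 34.0, 38.2, 99.2, 7.15 and 1.42 TPM at 0, 2, 12, 36 and 72 hai. In C033 it measured 29.8, 26.0, 60.9, 7.77 and 1.94 TPM, and in C032 29.1, 40.3, 91.2, 19.4 and 1.58 TPM. Its highest library was thus C129 at 12 hai and its lowest C129 at 72 hai, 70.0-fold apart. For the A03 copy the same 2 libraries were the extremes, 53.5-fold apart. The plot of RNA levels by time sets the copies side by side.

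**Figure D1:**
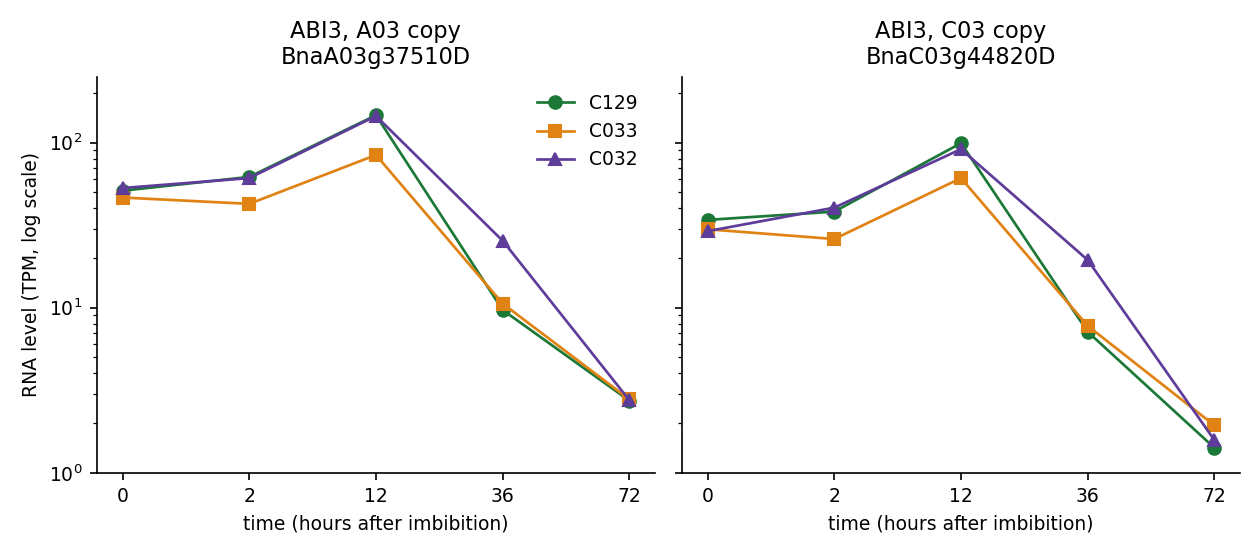
RNA level of the A03 copy (left) and the C03 copy (right) in TPM on a log axis against hours after imbibition, with 1 point per library and 1 line per accession. Every line peaks at 12 hai and ends at 72 hai between 1.42 and 2.78 TPM, and C032 stands above the other accessions at 36 hai.

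Each step was tested in limma, on the log2(TPM + 1) scale, in a model of time and accession fitted to the 53233 coding genes that reached 1 TPM in 3 or more libraries. The call required a log2 change beyond 1 together with a p-value under 0.05 after Benjamini-Hochberg adjustment. Both copies passed the filter, with at least 1.42 TPM in all 15 libraries. Over the first 2 hours of imbibition neither copy was called. The A03 copy averaged 55.1 ± 10.9 TPM at 2 hai and 50.2 ± 3.37 TPM at 0 hai, and the C03 copy 34.9 ± 7.70 TPM at 2 hai and 31.0 ± 2.66 TPM at 0 hai (SD, n = 3 accessions each). The limma log2 change was 0.11 ± 0.25 (SE) for the A03 copy and 0.14 ± 0.27 for the C03 copy, and of all genes tested 0.00188% were called in either direction at this step. Within accessions the copies moved together, both higher at 2 than at 0 hai in C129 and C032 and both lower in C033.

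Between 2 and 12 hai both copies were upregulated in TPM. The A03 copy averaged 125 ± 35.5 TPM at 12 hai and 55.1 ± 10.9 TPM at 2 hai, with ratios of 2.36 (C129), 1.98 (C033) and 2.38 (C032). The C03 copy averaged 83.8 ± 20.2 TPM at 12 hai and 34.9 ± 7.70 TPM at 2 hai, with ratios of 2.60 (C129), 2.34 (C033) and 2.26 (C032). For neither copy did the libraries of these time points overlap, and the share of all genes without such overlap was not counted. limma gave a log2 change of 1.14 ± 0.25 (SE) with an adjusted p of 0.00261 for the A03 copy and of 1.24 ± 0.27 with an adjusted p of 0.00275 for the C03 copy. Among all genes tested 11.0% were called as rising at this step. Against the dry seed the log2 change at 12 hai was 1.26 (adjusted p 0.00115, limma) for the A03 copy and 1.38 (adjusted p 0.00111) for the C03 copy, a rise called in 13.2% of all genes.

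The size of this rise depended on how the libraries were scaled. In TPM as deposited the median gene changed by 0.25 on the log2 scale at this step, and above this median the A03 copy rose by 0.89 and the C03 copy by 0.98. With median-of-ratios scaling, which sets the median ratio of genes to a common reference library to 1, the median change was 0.0 and the log2 change was 0.67 (adjusted p 0.0625, limma) for the A03 copy and 0.76 (adjusted p 0.0455) for the C03 copy, so that neither was called. The same scaling turned 5875 rising and 1109 falling genes at this step into 2718 rising and 2570 falling. The direction held in each accession: scaled in this way, the A03 copy stood at 94.8, 88.3 and 126 TPM at 12 hai in C129, C033 and C032, against 59.4, 57.3 and 76.3 TPM at 2 hai. For the C03 copy the scaled levels were 64.2, 64.0 and 79.5 TPM at 12 hai in the same accessions, against 36.6, 35.1 and 50.5 TPM at 2 hai. Under this scaling C032 had the highest peak of the 3 accessions, whereas in TPM as deposited C129 did. The plot of log2 changes under 3 scalings shows that the rise was the step that moved.

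**Figure D2:**
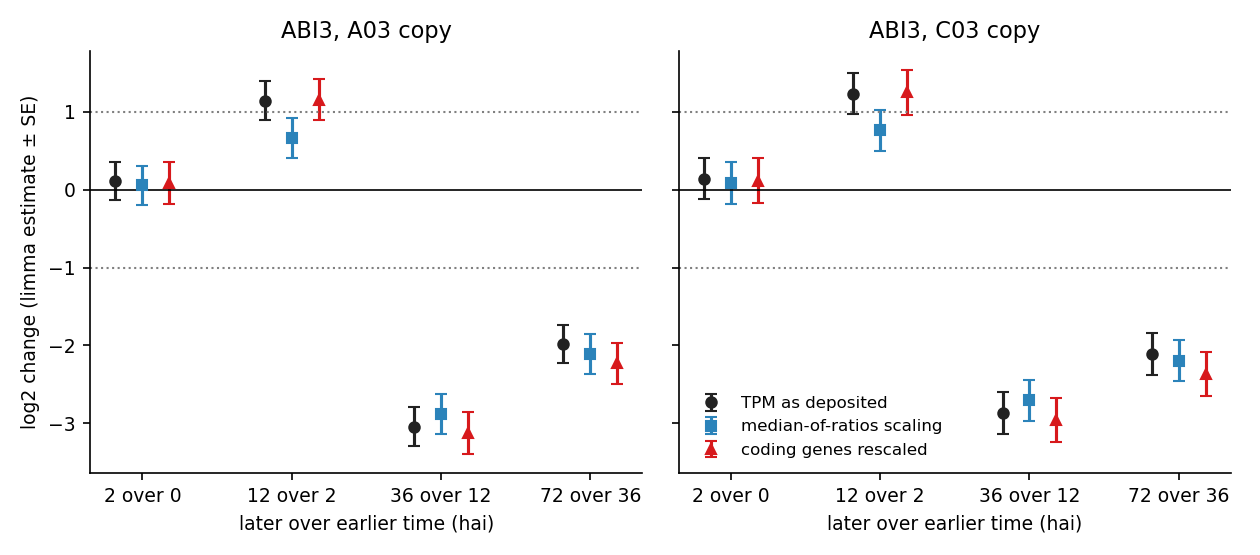
log2 change of the A03 copy (left) and the C03 copy (right) between successive time points, the later over the earlier, as limma estimates with SE bars for TPM as deposited, median-of-ratios scaling and TPM rescaled to a common total of coding genes. Dotted lines mark a log2 change of 1 in each direction. The rise at 12 hai falls below the upper line only under median-of-ratios scaling, at 0.67 and 0.76, and both falls stay beyond the lower line under each scaling.

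Between 12 and 36 hai the level of ABI3 RNA fell in TPM, which is a share of the library and not an amount per seed. The A03 copy averaged 15.2 ± 8.84 TPM at 36 hai and 125 ± 35.5 TPM at 12 hai, a log2 change of -3.04 ± 0.25 (SE, adjusted p 1.49e-07, limma). The C03 copy averaged 11.5 ± 6.93 TPM at 36 hai and 83.8 ± 20.2 TPM at 12 hai, a log2 change of -2.87 ± 0.27 (adjusted p 6.45e-07). Of all genes tested 14.0% fell at this step, with a median log2 change of 0.041 over all of them. Both falls were called under every scaling, pseudocount and filter tried and with any 1 accession left out.

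The fall in level continued from 36 to 72 hai. The A03 copy averaged 2.76 ± 0.0254 TPM at 72 hai and 15.2 ± 8.84 TPM at 36 hai, a log2 change of -1.98 ± 0.25 (SE, adjusted p 1.57e-05, limma), and the C03 copy 1.64 ± 0.266 TPM at 72 hai and 11.5 ± 6.93 TPM at 36 hai, a log2 change of -2.11 ± 0.27 (adjusted p 2.09e-05). This fall was shared by 4.82% of all genes. From the peak to 72 hai the log2 change was -5.02 (adjusted p 5.71e-10) for the A03 copy and -4.98 (adjusted p 1.55e-09) for the C03 copy, a fall called in 13.1% of genes. Against the dry seed the copies at 72 hai were lower by a log2 change of -3.77 (adjusted p 4.58e-09) and -3.60 (adjusted p 2.03e-08), a fall called in 10.4% of genes.

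The accessions differed in the level of ABI3 RNA at 36 hai. At 36 hai the A03 copy was at 25.4 TPM in C032, against 9.69 TPM in C129 and 10.6 TPM in C033, and the C03 copy at 19.4 TPM in C032, against 7.15 TPM in C129 and 7.77 TPM in C033. On the log2(TPM + 1) scale C032 stood above the mean of the other 2 accessions by 1.25 for the A03 copy and 1.27 for the C03 copy, while the median gene stood at -0.13. Among all genes 3.04% were higher by more than 1 in that library, and 1006 genes stood further up than the A03 copy. With median-of-ratios scaling the difference was 1.39 for the A03 copy and 1.41 for the C03 copy. With 1 library per accession and time point this difference has no replicate check.

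Read by accession, the fall from 12 to 36 hai in the A03 copy was 15.1-fold in C129, 7.94-fold in C033 and 5.70-fold in C032. For the C03 copy it was 13.9-fold in C129, 7.84-fold in C033 and 4.69-fold in C032. From 36 to 72 hai the fall of both copies was largest in C032: the A03 copy fell 3.54-fold in C129, 3.80-fold in C033 and 9.24-fold in C032. The C03 copy fell 5.05-fold, 4.01-fold and 12.3-fold in the same accessions. In C032 the larger part of the fall of both copies, in fold, thus came after 36 hai, and in C129 and C033 before it.

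At 12 hai it was C033 that stood apart in TPM. The A03 copy was at 84.1 TPM in C033, against 146 TPM in C129 and 145 TPM in C032, and the C03 copy at 60.9 TPM in C033, against 99.2 and 91.2 TPM. This library had the highest share of non-coding reads, 26.6%, and the lowest sum of coding TPM, 608866. On the log2(TPM + 1) scale C033 lay at -0.79 from the mean of the other accessions for the A03 copy and at -0.63 for the C03 copy, where the median gene lay at -0.33. With median-of-ratios scaling these differences were -0.31 for the A03 copy and -0.16 for the C03 copy, and the part of the library's composition in the lower peak was not tested further.

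Across the 5 time points no accession difference was called for either copy. For C129 over C032 the log2 difference was -0.27 ± 0.19 (SE, adjusted p 0.284, limma) for the A03 copy and -0.23 ± 0.21 (adjusted p 0.388) for the C03 copy, where 6.99% of all genes were called. For C129 over C033 it was 0.26 ± 0.19 (adjusted p 0.255) for the A03 copy and 0.21 ± 0.21 (adjusted p 0.411) for the C03 copy, where 5.95% of genes were called. For C033 over C032 it was -0.53 ± 0.19 (adjusted p 0.0811) for the A03 copy and -0.44 ± 0.21 (adjusted p 0.192) for the C03 copy, where 5.43% of genes were called. The median gene stood at 0.26 for C129 over C032, at 0.36 for C129 over C033 and at -0.10 for C033 over C032. With median-of-ratios scaling the difference of C129 over C032 was -0.61 (adjusted p 0.0511, limma) for the A03 copy. For the C03 copy it was -0.57 (adjusted p 0.0833), and neither was called. An accession difference limited to 1 time point, as at 36 hai, counts as noise in this test.

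The A03 copy was the more abundant of the pair in 15 of 15 libraries. Its TPM was 1.31 to 1.93 times that of the C03 copy, on average 1.55, and it made up 56.7% to 65.9% of their sum. The mean log2 ratio, with 1 TPM added to each copy, was 0.56 over the 15 libraries. An exact sign-flip permutation test gave a two-sided p of 6.104e-05, the smallest that 15 libraries allow, and 0.0001831 after Benjamini-Hochberg adjustment over the 3 tests made on this ratio. Libraries of 1 accession share a genotype, and with the 3 accessions as units the exact p was 0.25, the smallest possible. Because TPM divides by model length and the C03 model is 0.946 times as long as the A03 model, the ratio of reads not set per length was larger, 1.64 on average.

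The A03 over C03 ratio lay between 1.31 and 1.93 while the sum of the copies changed from 246 TPM in C129 at 12 hai to 4.15 TPM in C129 at 72 hai. Reads shared out between the copies during quantification could bear on this ratio, which was not tested. The A03 over C03 ratio averaged 1.63 ± 0.172 at 0 hai, 1.59 ± 0.0680 at 2 hai, 1.48 ± 0.104 at 12 hai, 1.34 ± 0.0299 at 36 hai and 1.70 ± 0.249 at 72 hai (SD, n = 3 accessions each). At 36 hai, the lowest, the 3 libraries lay between 1.31 and 1.36, under the 12 libraries of the other time points. An exact permutation of time labels within accessions gave p = 0.0578 (adjusted 0.0867), so that a difference with time did not pass the threshold. The mean log2 ratio of the time points, with 1 TPM added, spanned 0.29. At 72 hai the C03 copy rested on 100.0 to 118 read equivalents, and the ratios there spread most, from 1.44 to 1.93.

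By accession the A03 over C03 ratio averaged 1.58 ± 0.219 in C129, 1.47 ± 0.117 in C033 and 1.59 ± 0.203 in C032 (SD, n = 5 time points each), and these ranges overlapped. An exact permutation of accession labels within time points gave p = 0.382 (adjusted 0.382), with mean log2 ratios that spanned 0.09. The plot of the copy ratio shows each library.

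**Figure D3:**
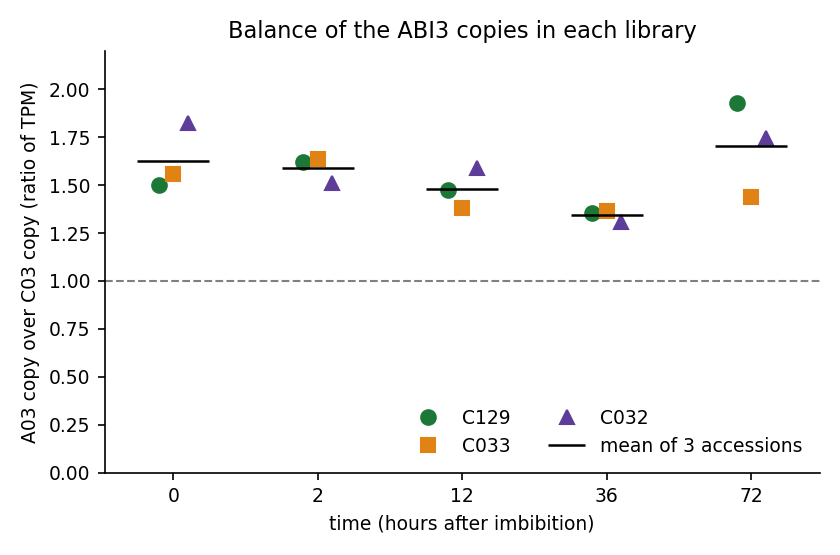
Ratio of the TPM of the A03 copy to that of the C03 copy in each of the 15 libraries against hours after imbibition, with the mean of 3 accessions as a bar at each time point and a dashed line at equal levels. All points lie above the line, between 1.31 and 1.93, and the points at 36 hai, 1.31 to 1.36, are the lowest.

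The next coding genes of each copy were read from the annotation. The A03 copy was the 114th of 246 coding genes on its scaffold. Its next gene on the left, BnaA03g37500D, 11335 bases away, was listed at 0 TPM in all 15 libraries, and its next gene on the right, BnaA03g37520D, 717 bases away on the opposite strand, reached at most 2.97 TPM. The C03 copy was the last of 76 coding genes on its scaffold, so that only its left side could be read. Its next gene there, BnaC03g44810D, 5402 bases away, was listed at 0 TPM in all libraries. Neither copy overlapped its next coding gene.

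Each copy was the gene most like the other. Likeness was measured as the Pearson r of log2(TPM + 1) over the 15 libraries, which share 3 accessions and 5 time points, against the other 53232 genes, and is a description with no test. Between the copies r was 0.998, while the median gene had an r of -0.31 with the A03 copy and of -0.29 with the C03 copy. Reads shared out between the copies could bear on their r as well, which was not tested. Next to the A03 copy came BnaC03g49530D (r = 0.994), BnaCnng07010D (0.991), BnaA06g23710D (0.990), BnaA06g25280D (0.982) and BnaC05g20420D (0.981). Next to the C03 copy came BnaA06g23710D (r = 0.991), BnaC03g49530D (0.990), BnaCnng07010D (0.990), BnaA04g16900D (0.984) and BnaA06g25280D (0.984). None of these 6 genes had an annotation at hand.

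These genes were picked by their r over the same 15 libraries, so a shape shared with ABI3 follows from the choice. Their levels differed. BnaA06g23710D in C032 measured 44.3, 54.5, 192, 21.4 and 1.87 TPM at 0, 2, 12, 36 and 72 hai. BnaA06g25280D kept the shape at a low level, with 2.35, 2.58, 3.52, 2.10 and 0.703 TPM in C032. In C129 the library order of BnaA04g16900D was that of both ABI3 copies, with 38.6, 42.4, 114, 7.94 and 1.23 TPM. At 36 hai all 6 genes were highest in C032, as both ABI3 copies were, from 2.10 TPM for BnaA06g25280D to 62.9 TPM for BnaC05g20420D. That library was among those used to pick them, so this is not separate evidence.

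Other regulators of germination were read from the loci the study names, 11 in all, of which 10 passed the filter on low values. Between 2 and 12 hai 4 of the 10 rose and 0 fell, against 11.0% and 2.08% of all genes, and their median log2 change was 0.98 where that of all genes was 0.25. With median-of-ratios scaling 1 of the 10 was called as rising and 0 as falling, against 2718 and 2570 of all 53233 genes tested. Between 12 and 36 hai 1 rose and 5 fell, against 18.8% and 14.0% of all genes, with a median log2 change of -1.12. Under that scaling 2 rose and 4 fell at this step, against 10697 and 6071 of all genes. Between 36 and 72 hai 1 rose and 2 fell, against 17.1% and 4.82% of all genes. The study chose these loci with these libraries at hand, so the counts are not independent evidence of a direction.

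Both RGL2 copies, PIL5, DOF6, GID1a and GA1 had their highest TPM at 12 hai in each accession, as ABI3 did. With median-of-ratios scaling this held for each of them, except that GID1a in C129 was at 60.2, 57.6 and 58.3 TPM at 0, 2 and 12 hai. RGL2, in Arabidopsis a DELLA repressor of gibberellin responses in seeds, rose between 2 and 12 hai at its C05 copy BnaC05g47760D, to 178, 74.1 and 80.5 TPM in C129, C033 and C032 at 12 hai, against 33.1, 22.3 and 27.8 TPM at 2 hai (log2 change 1.86, adjusted p 5.46e-05, limma). PIL5 (BnaC07g00780D), in Arabidopsis a bHLH repressor of light-dependent germination, rose by a log2 change of 1.01 (adjusted p 0.000214), and DOF6 (BnaA02g06470D), a DOF transcription factor that represses germination in Arabidopsis, by 1.31 (adjusted p 0.000173). With median-of-ratios scaling PIL5 changed by 0.57 and DOF6 by 0.88, short of the call, and RGL2 C05 by 1.39.

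GID1a (BnaC05g46680D), a gibberellin receptor, had the profile most like the ABI3 copies among the 10, with an r of 0.89 with the A03 copy and 0.88 with the C03 copy. It was at 90.1, 71.3 and 59.6 TPM at 12 hai in C129, C033 and C032, against 60.0, 36.4 and 18.8 TPM at 2 hai, with a log2 change of 1.05 that was not called (adjusted p 0.0574, limma). At 36 hai it was at 2.12, 4.22 and 5.19 TPM, a log2 change of -3.99 from 12 hai (adjusted p 3.39e-06). GA1 (BnaA09g01090D), which starts gibberellin synthesis, fell by 2.05 on the log2 scale at that step (adjusted p 3.93e-07). KO1 (BnaC07g28980D), also of gibberellin synthesis, went the other way, with a log2 change of 0.87 that was short of the call (adjusted p 0.00343, limma). Its TPM was highest at 36 hai in each accession, and its r with the A03 copy was -0.49. NF-YC9 (BnaA09g48620D) was not called at that step (log2 change -0.38).

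SPT (BnaA01g00730D), a bHLH regulator of germination in Arabidopsis, moved against ABI3 between 12 and 36 hai. It was at 31.9, 14.7 and 19.0 TPM at 36 hai in C129, C033 and C032, against 0.933, 0.611 and 0.123 TPM at 12 hai, a log2 change of 3.84 (adjusted p 1.22e-08, limma). A rise between 12 and 36 hai was called in 18.8% of all genes. From 36 to 72 hai, when both ABI3 copies fell, SPT was not called (log2 change -0.0063). Its r was -0.85 with the A03 copy and -0.83 with the C03 copy, where the median gene had -0.31 and -0.29. An r below -0.9 was reached by 3408 genes with the A03 copy and by 2889 with the C03 copy. HFR1 (BnaC05g01110D), a bHLH factor of light signalling, was listed at 0 TPM in all libraries to 12 hai, reached 10.0, 6.70 and 10.3 TPM in C129, C033 and C032 at 72 hai, and had an r of -0.87 with both copies. The heat map of like genes and regulators shows these courses library by library.

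**Figure D4:**
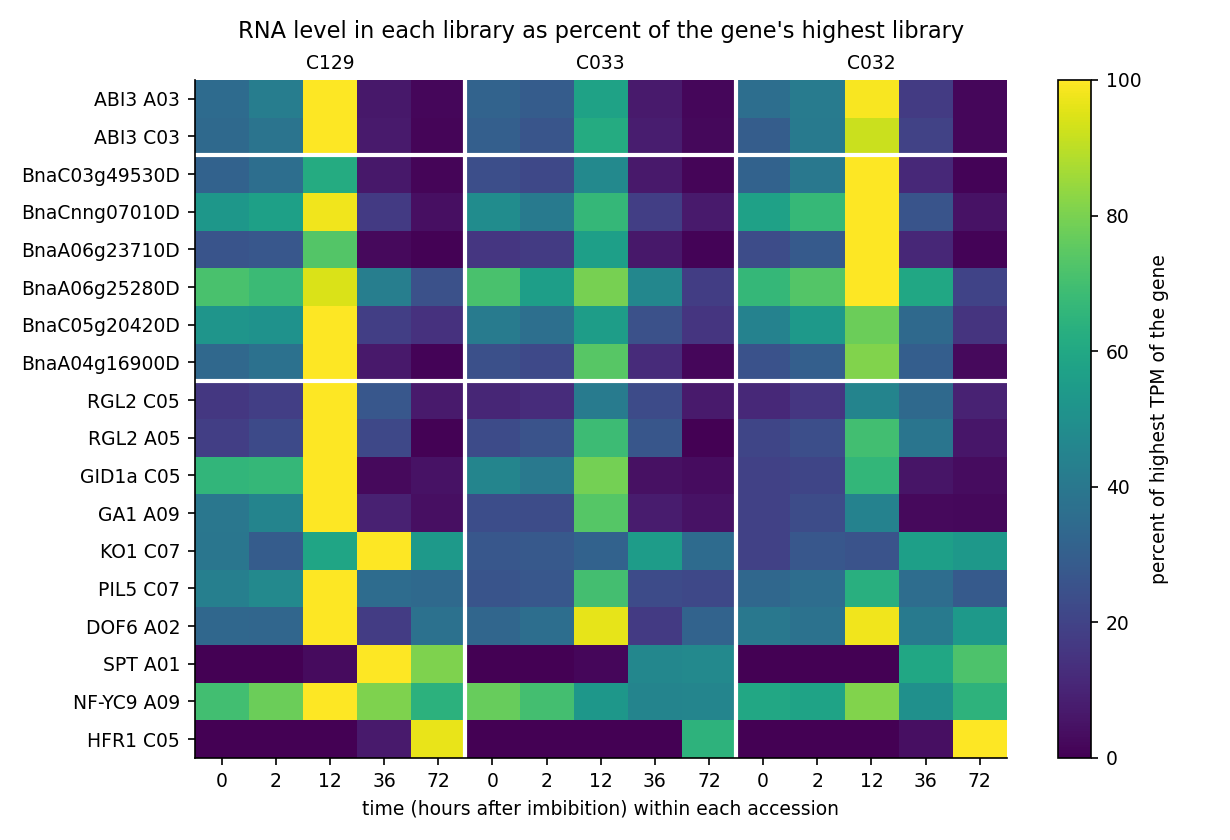
RNA level of each gene in each library as percent of the gene's highest TPM (colour), with libraries in columns by accession and hours after imbibition, and in rows the ABI3 copies, the 6 genes most like them and the 10 regulators of germination that passed the filter. The ABI3 copies and the 6 like genes are brightest at 12 hai in each accession, and SPT and HFR1 are dark until 12 hai.

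Of the genes that ABI3 is known to switch on in Arabidopsis seeds, 7 matches were measured, 4 napins (seed storage albumins), 2 oleosins and 1 caleosin (oil body coat proteins). None was called as rising with ABI3 at 12 hai. Between 2 and 12 hai 0 of the 7 rose and 3 fell, the oleosins and the caleosin, against 11.0% and 2.08% of all genes, with a median log2 change of -0.99. Between 12 and 36 hai 0 rose and 5 fell, against 18.8% and 14.0% of all genes, with a median of -1.58. The oleosin match BnaC09g27370D was at 5.52, 9.79 and 22.1 TPM at 12 hai in C129, C033 and C032, against 32.4, 34.6 and 37.2 TPM at 2 hai (log2 change -1.60, adjusted p 0.000656, limma), while both ABI3 copies were higher at 12 than at 2 hai in each accession. At 36 hai, when ABI3 RNA was highest in C032, the summed level of the 7 genes was 13.7 TPM in C032, against 0.577 TPM in C129 and 19.0 TPM in C033. The napin match BnaA01g17200D alone made up 10.4 TPM of the sum in C033. The oleosins, the caleosin and the napin match BnaC07g40770D, 4 of the 7, were highest in C032 then, at 1.67, 2.01, 0.708 and 4.69 TPM. All 4 were already highest in C032 at 12 hai, at 26.7, 22.1, 10.2 and 28.2 TPM. In dry seeds the oleosin BnaC09g27370D, the caleosin and BnaC07g40770D were highest in C032 too, at 56.5, 15.3 and 23.1 TPM. The oleosin BnaA07g14960D was then highest in C129. At 12 hai neither ABI3 copy was highest in C032 in TPM as deposited, with the A03 copy at 145 TPM against 146 TPM in C129. With median-of-ratios scaling both copies were highest in C032, at 126 TPM (A03) and 79.5 TPM (C03). A link between ABI3 and these levels was not tested.

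Between 12 and 36 hai, when ABI3 fell, the receptor matches of ABA signalling rose. The 3 matches were 2 of PYL8 and 1 of PYL2, ABA receptors in Arabidopsis. Between 2 and 12 hai 0 of the 3 were called, where 11.0% of all genes rose and 2.08% fell. Between 12 and 36 hai 3 rose, against 18.8% of all genes. Between 36 and 72 hai 1 fell, the PYL2 match (log2 change -1.14, adjusted p 0.000409, limma), against 4.82% of all genes and in the direction of both ABI3 copies. The PYL8 match BnaA10g06520D was at 10.1, 6.84 and 5.87 TPM at 36 hai in C129, C033 and C032, against 1.21, 0.191 and 0.390 TPM at 12 hai (log2 change 2.45, adjusted p 9.94e-08, limma). The remaining matches were barely detected at 12 hai, with at most 0.290 TPM for PYL8 BnaCnng37890D and 0.632 TPM for PYL2. The PYL2 match reached at most 2.49 TPM at 36 hai. The match of DOG1 (BnaAnng11390D), the dormancy gene of Arabidopsis, was highest at 0 and 2 hai, at most 3.86 TPM, and lower at 72 hai than at 0 hai by a log2 change of -1.80 (adjusted p 9.69e-07). Matches of these lists came from a table of genes the study had already picked as changing, so their counts do not show how often such genes change.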

How the data were processed

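Seeds of 3 accessions were sampled at 5 time points, with 1 library for each. After removal of adapters, the authors used HISAT for mapping to the Brassica napus genome of Chalhoub et al. and StringTie for quantification. The versions of both are not given in the sources used here. TPM values, as deposited by the authors, cover coding and non-coding genes together, and coverage, as deposited by the authors, is the mean read depth of a gene. Only coding genes were tested. R 4.3.3 with limma 3.58.1 was used, its trend and robust settings on, for log2(TPM + 1), a pseudocount of 1 TPM, with time and accession as terms, 8 residual degrees of freedom and p-values adjusted over all genes tested. A fold change on this scale understates the change of low genes. The accession is the pairing of the time points, since each accession was sampled at every time point. Copy ratios were tested by exact permutation in Python 3.11.15 (numpy 2.4.6, pandas 2.3.3, scipy 1.17.1, matplotlib 3.10.9). Scripts were tested on simulated data. Alternatives were pseudocounts of 0.01 and 0.1 TPM, no minimum or a minimum of 5 TPM, 2 scalings, the model without its second term, and each accession or time point left out. Median-of-ratios factors were computed over 39979 genes and ranged from 0.727 to 1.55.

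The genes named are the copies, the 5 genes most like each, the next genes on the scaffolds and 27 listed loci. The copies and lists were chosen with earlier results of these data known. The identifiers matched 0 names of the reference table, so that loci other than those the study names carry recalled Arabidopsis names. Quantitative PCR and the cloned sequence were not analysed here.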

Additional observations from a re-analysis of the deposited data

Results flagged for a closer look

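Between 0 and 2 hai both copies were lower at 2 hai in C033 and higher at 2 hai in C129 and C032. In C033 the log2 ratio of TPM at 2 over 0 hai was -0.13 for the A03 copy and -0.20 for the C03 copy, whereas in C129 it was 0.28 and 0.17 and in C032 0.20 and 0.47. With median-of-ratios scaling the ratio in C033 was -0.088 for the A03 copy and -0.16 for the C03 copy, and those in C129 and C032 stayed above 0. The difference between accessions was not tested, since each value rests on 1 library per accession and time point, and the C033 library at 2 hai was the deepest, with 51.9 M read equivalents.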

How the results depend on the processing

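The 7 time contrasts of the copies kept their direction and their side of the threshold in 135 of 140 alternatives. The exceptions were the rise to 12 hai under median-of-ratios scaling, with log2 changes of 0.67 (A03) and 0.76 (C03) against 2 hai and of 0.72 (A03, adjusted p 0.0428, limma) and 0.85 (C03, adjusted p 0.0264) against 0 hai, and the uncalled step from 0 to 2 hai of the C03 copy, -0.014 to 0.31 with each accession left out, below 0 without C032. The uncalled difference of C129 over C033 turned to -0.22 (A03) and -0.26 (C03) under median-of-ratios scaling and to -0.040 (C03) with coding genes rescaled. That of C129 over C032 for the C03 copy lay between -0.34 and 0.042 with each time point left out, above 0 without 36 hai, and was not called. Under median-of-ratios scaling the difference of C129 over C032 grew to -0.61 (A03) and -0.57 (C03), also not called. Without the accession term (no replicate block) the rise from 2 to 12 hai was 1.14 (A03) and 1.24 (C03), with a larger SE of 0.32 for each, and no call changed. The excess of the A03 copy had a log2 ratio of 0.56 with exact p = 0.25 over 3 accessions as units, and of 0.53 to 0.60 with each accession or time point left out. Of the 5 genes most like the A03 copy, 3 remained with Spearman's rho, 3 with median-of-ratios scaling and 2 to 4 with each accession left out. Of those most like the C03 copy, 2 remained with rho and 2 to 4 with each accession left out, and the A03 copy was 4th by rho. The cause was not tested in any of these. Levels at 72 hai rest on the fewest reads, which limits the copy ratio there.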

Other observations

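Of the embryo programme, 1 match each of LEC1 and LEC2 was read. The match of LEC1 (BnaA07g10770D) was listed at 0 TPM in all dry seed and 2 hai libraries and at 0.431, 0.453 and 0.370 TPM in C129, C033 and C032 at 36 hai. The match of LEC2 (BnaC07g10500D) was listed above 0 only at 36 hai, at 0.124, 0.0782 and 0.0859 TPM in the same accessions. Both were below 1 TPM in every library and were not tested. At 36 hai the A03 copy of ABI3 was at 9.69, 10.6 and 25.4 TPM in those accessions.

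An r above 0.9 was reached by 613 genes with the A03 copy and by 468 with the C03 copy, and an r below -0.9 by 3408 with the A03 copy and by 2889 with the C03 copy, of the other 53232 genes over the same 15 libraries. An r above 0.95 was reached by 80 genes with the A03 copy and by 60 with the C03 copy.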
